A study of Mus musculus with 6 samples.

Results

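*Ttn* and *Neb* encode titin and nebulin, giant proteins of the muscle sarcomere, and both lie on chr 2 of the mouse. Their loci were followed through muscle differentiation as the 500 kb bins that overlap the gene bodies in 3 deposited Hi-C correlation matrices. The gene bodies of *Ttn* and *Neb* each fell in a single bin, so that the loci are 2 of the 5272 bins of the autosomes and chr X. Of these, 4727 autosomal bins, 352 of them on chr 2, held data in every condition. Both loci had been selected on the compartment score, profile correlation and partner values of these same matrices. Those values are therefore given as a description with no test.

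Hi-C ligates and sequences DNA ends that are close together in the nucleus. The cells were C2C12, an established mouse line whose myoblasts fuse into myotubes with many nuclei when serum is lowered. All cultures first proliferated for 72 h. Myoblasts were taken at day 0, and myotubes at day 3 of differentiation without cytosine arabinoside (AraC). In the paper, myoblasts were plated at a lower density than the cultures to be differentiated. Effects of density and of differentiation therefore cannot be told apart. AraC-treated myotubes were harvested at day 7 and had received 10 µg/ml of AraC, a nucleoside analogue that kills dividing cells, from day 3. No untreated culture of day 7 was included, so that effects of time and of AraC cannot be told apart. Each condition had 2 biological replicates from different source vials, which the authors pooled into 1 matrix. A condition therefore has 1 value per pair of bins, without an SD over replicates or a test of conditions. The matrices hold no RNA values, so the cell identities are those of the labels. A culture is a mixture of cells, and a changed share of cells cannot be told apart from a change within cells.

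Titin spans the sarcomere from the Z-disc to the M-band and acts as a molecular spring and scaffold of the thick filament. Nebulin runs along the thin filament of actin and helps to set its length. Both are muscle proteins that are made as myoblasts differentiate. Chromosomes separate into an A compartment, which is rich in genes and open, and a B compartment, which is compact, and regions of like compartment share interaction partners.

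On mm10, *Ttn* (ENSMUSG00000051747) runs from 76703980 to 76982547 on the minus strand of chr 2. The gene is 279 kb long, and its transcript with the most exonic bases has 347 exons. It fills 55.7% of its bin, chr2:76500001-77000000. This bin also holds the starts of *Prkra*, *Pjvk*, *Fkbp7* and *Plekha3* and the end of *Osbpl6*. *Neb* (ENSMUSG00000026950) runs from 52136647 to 52378474, also on the minus strand, and is 242 kb long with 157 exons in that transcript. It fills 48.4% of the bin chr2:52000001-52500000, which also holds the starts of *Tnfaip6*, *Rif1* and *Arl5a* and part of *Cacnb4*. The values below belong to whole bins and cannot be assigned to one of these genes.

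The RefSeq table (GRCm38.p6) used here held the promoter of *Ttn* and not that of *Neb*. The 250 bases before the start of *Ttn*, chr2:76982548-76982797 on the minus strand, are shown because the start lies in the bin that gained A compartment values. Capitals mark a MEF2 motif, which ends 157 bases before the start, and an E-box, CANNTG, which ends 133 bases before it.
Ttn promoter: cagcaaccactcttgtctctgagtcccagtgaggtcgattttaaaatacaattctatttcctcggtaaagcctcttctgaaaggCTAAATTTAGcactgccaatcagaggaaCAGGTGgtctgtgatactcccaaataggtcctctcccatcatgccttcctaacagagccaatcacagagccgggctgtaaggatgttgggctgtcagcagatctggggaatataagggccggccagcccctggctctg
On either strand, a MEF2 motif was present in 2.92% and an E-box in 66.2% of the 32851 promoters of this length, while the CArG motif, present in 1.47%, was not found in this window. MEF2 proteins and the E-box-binding MyoD family are regulators of muscle genes, but a match to these letters is not a binding site.

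The Hi-C libraries were cut with HindIII, whose site is aagctt. The *Ttn* bin holds 167 HindIII sites and the *Neb* bin 172, close to the median of 162 over the autosomal bins. Their G and C content, 42.2% and 41.7%, was also close to the median of 41.7%. A matrix value, from −1 to 1, is the correlation coefficient between the normalized profiles of interactions of 2 bins. It is high where both bins have like partners, it is no number of contacts, and it does not show the depth behind it.

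The compartment score, PC1, is the score of a bin on the first principal component of its chromosome's matrix, with values above 0 called A and values below 0 called B. The component carried 55.6% of the variance of chr 2 in myoblasts, 79.8% in myotubes and 74.1% in the AraC-treated myotubes. PC1 of the *Ttn* bin was −0.13 in myoblasts, 2.3 in myotubes and 2.18 in the AraC-treated myotubes. PC1 of the *Neb* bin was −0.207, 0.718 and 0.976 in the same order. Both bins were thus in B in myoblasts and in A in both later conditions. Over the autosomes, 2.77% of bins moved from B to A from myoblasts to myotubes, and 3.72% did so from myoblasts to AraC-treated myotubes. From myoblasts to myotubes the score was higher in 35.8% of autosomal bins, and from myoblasts to AraC-treated myotubes in 35.2%. Because both loci were picked on PC1, these shares are given as background only.

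In myoblasts, the scores of both loci lay close to the boundary at 0. The *Ttn* score lay 0.152 and the *Neb* score 0.241 SD of the autosomal bins below 0. They were still higher than those of 56.9% and 53.6% of autosomal bins, since most bins were in B. In myotubes, the *Ttn* score exceeded that of 87.3% of autosomal bins and the *Neb* score that of 73.1%. In AraC-treated myotubes, these shares were 89.2% and 76.7%. *Ttn* therefore moved from the middle of the distribution into its upper part, while *Neb* stayed nearer to the boundary.

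Over the autosomal bins, PC1 had an SD of 0.859 in myoblasts, 1.61 in myotubes and 1.36 in the AraC-treated myotubes, so that raw scores spread out after differentiation. The rise of the *Ttn* score from myoblasts to myotubes, 2.43, was the second largest of 4727 autosomal bins. With each score divided by the SD of its condition, the rise was 1.58 and ranked first. From myoblasts to AraC-treated myotubes the *Ttn* rise was 2.31, again the second largest, and 1.75 after scaling. The *Neb* rise from myoblasts to myotubes was 0.925 and ranked 836 on the raw scale, but 65 after scaling, where it was 0.687. From myoblasts to AraC-treated myotubes the *Neb* rise of 1.18 ranked 256, and the scaled rise of 0.96 ranked 89. The median change over autosomal bins was −0.312 in the first pair of conditions and −0.21 in the second. Both pairs share the myoblast matrix and are not independent.

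From myotubes to AraC-treated myotubes, the changes were smaller. The *Ttn* score changed by −0.121 and the *Neb* score by 0.257, while the median over autosomal bins was 0.0812. After scaling, both values were above 0, at 0.176 for *Ttn* and 0.273 for *Neb*.

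**Figure D1:**
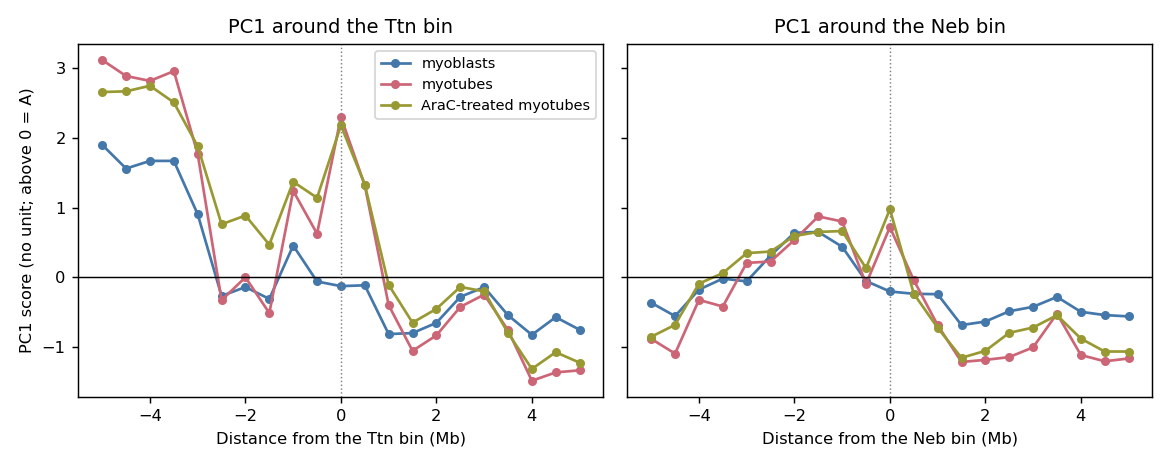
PC1 score (no unit, above 0 is A) against distance in Mb from the *Ttn* bin (left) and the *Neb* bin (right), 1 point per 500 kb bin and a line per condition. The *Ttn* bin stands at 2.3 in myotubes and 2.18 in the AraC-treated myotubes between neighbours with lower scores. The *Neb* bin, at 0.718 and 0.976, is also higher than the bin on each side. In myotubes, the bins 1 Mb and 1.5 Mb before *Neb* are higher than it, at 0.799 and 0.872.

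The extent of the change along the chromosome differed between the loci. Beside *Ttn*, the bin at the next higher coordinate, which holds the starts of *Ccdc141* and *Sestd1*, had PC1 of −0.118 in myoblasts, 1.32 in myotubes and 1.33 in the AraC-treated myotubes. *Ccdc141* is a neighbour of *Ttn* that is expressed in muscle. The bin on the other side, with *Pde11a*, *Rbm45* and the start of *Osbpl6*, had −0.0633, 0.624 and 1.14. The *Ttn* bin and both neighbours formed a stretch of 3 bins that moved from B to A. One bin further on each side the pattern ended. The bin with *Nfe2l2* and *Agps*, 1 Mb before the *Ttn* bin, was already in A with 0.453, and that with *Cwc22*, 1 Mb after it, was in B in every condition, with −0.819, −0.403 and −0.112.

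The *Hoxd* cluster, 2 Mb before *Ttn*, behaved otherwise. Its bin holds developmental regulators of limb and trunk patterning and had PC1 of −0.143 in myoblasts, −0.00262 in myotubes and 0.885 in the AraC-treated myotubes. The bins without protein-coding starts on either side of it had −0.332 and −0.517 in myotubes and 0.759 and 0.466 in AraC-treated myotubes. This stretch was thus in A in the AraC-treated myotubes of day 7 alone, whereas the *Ttn* bin was in A in both later conditions. The day and the drug differ together here.

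*Neb* stood alone. The bin before it, with *Nmi* and *Rbm43*, had PC1 of −0.0564, −0.0994 and 0.128. The bin after it, with *Stam2*, *Fmnl2* and the start of *Cacnb4*, had −0.24, −0.0437 and −0.238. In myotubes, the *Neb* bin was therefore an A bin between B bins, and 1 Mb before it lay a stretch that was in A in all 3 conditions, where the bin of *Rnd3* had 0.436, 0.799 and 0.662.

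The coefficients of each bin with the rest of chr 2 were compared between conditions. Between myoblasts and myotubes, Pearson *r* of the *Ttn* profile was −0.522 over 351 bins, and that of the *Neb* profile was −0.34. Between myoblasts and AraC-treated myotubes, *r* was −0.514 for *Ttn* and −0.599 for *Neb*. In both pairs, *r* below 0 was uncommon, with 3.28% and 5.8% of autosomal bins, and the medians over autosomal bins were 0.877 and 0.839. Between myotubes and AraC-treated myotubes, *r* was 0.973 for *Ttn* and 0.763 for *Neb*, around a median of 0.947. The points of a profile come from the same pooled libraries and neighbouring bins are not independent, so *r* is a description.

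On chr 2, *Ttn* had the lowest *r* of 352 bins between myoblasts and myotubes, and *Neb* ranked 3. Between myoblasts and AraC-treated myotubes, *Neb* had the lowest *r* and *Ttn* the second lowest. On all autosomes, 103 bins (2.18%) were in B in myoblasts and in A in both later conditions, and 31 (0.656%) also had *r* below 0 against both. Of these, 4 lay on chr 2. They were the *Neb* bin, the *Ttn* bin and both neighbours of *Ttn*, whose *r* between myoblasts and myotubes was −0.0972 on the side of *Pde11a* and −0.393 on the side of *Ccdc141*.

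**Figure D2:**
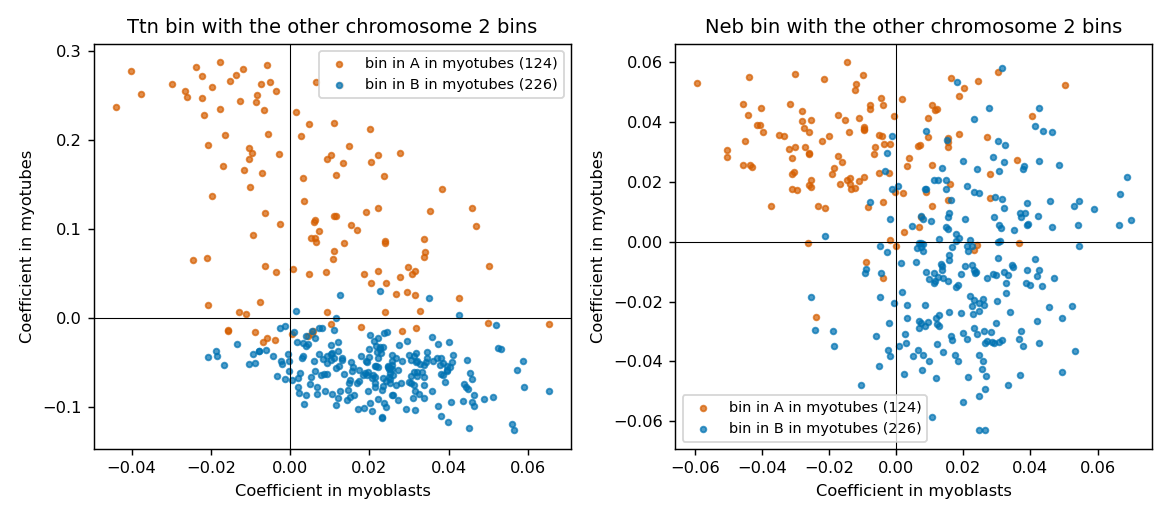
Correlation coefficient of the *Ttn* bin (left) and the *Neb* bin (right) with each other bin of chr 2, in myoblasts (x axis) and in myotubes (y axis), coloured by the compartment of that bin in myotubes. Bins in A lie above and to the left of bins in B, and the y axis of *Ttn* reaches 0.288 while that of *Neb* reaches only 0.0598.

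The myoblast profiles behind the negative *r* had little structure. In myoblasts, the coefficients of the *Ttn* bin with chr 2 bins more than 2 Mb away ran from −0.044 to 0.0654 around a median of 0.0171. Their SD was 0.0197, the 16th lowest of 352 bins, where the median was 0.0483. In myotubes they ran from −0.127 to 0.288, with an SD of 0.107 against a median of 0.0875, and in AraC-treated myotubes from −0.138 to 0.262, with an SD of 0.101. The profile of *Ttn* thus went from among the flattest of chr 2 to steeper than the median.

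The *Neb* profile was flatter than the median of chr 2 in all 3 conditions. Its SD was 0.0244 in myoblasts, 0.0284 in myotubes and 0.0408 in the AraC-treated myotubes, where the medians of chr 2 were 0.0483, 0.0875 and 0.0728. In myotubes, its SD was the 26th lowest of 353 bins. The highest coefficient of *Neb* with a distant bin was 0.0699, 0.0598 and 0.0897 in these conditions. A change of sign of the *Neb* profile therefore rests on small coefficients, and its part in the low *r* was not tested.

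By compartment, the *Ttn* bin in myoblasts had a mean coefficient of 0.00404 ± 0.0195 (SD over 134 bins) with distant A bins of chr 2 and of 0.0227 ± 0.0161 with 209 distant B bins. In myotubes, the mean was 0.124 ± 0.0972 with A bins and −0.059 ± 0.026 with B bins. Only 3 of 222 B bins (1.35%) had a coefficient above 0 in myotubes, against 193 of 209 (92.3%) in myoblasts. In AraC-treated myotubes, the means were 0.118 ± 0.0801 and −0.0643 ± 0.0281. The *Neb* bin had −0.00753 ± 0.0235 with A bins and 0.0211 ± 0.0178 with B bins in myoblasts, and 0.0297 ± 0.016 and −0.00966 ± 0.0237 in myotubes. In AraC-treated myotubes, these were 0.0436 ± 0.0272 and −0.0255 ± 0.0225. Both bins leaned towards B bins in myoblasts and towards A bins later. The contrast between A and B bins was larger for *Neb* in myoblasts and larger for *Ttn* in both later conditions.

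The bins that gained most with *Ttn* lay in a gene-rich part of chr 2, 43.5 to 51 Mb away. With the bin of *Abl1*, which encodes a tyrosine kinase, the coefficient was −0.0402 in myoblasts, 0.278 in myotubes and 0.253 in the AraC-treated myotubes. With the bin of *Fnbp1* and *Ass1*, the latter an enzyme of the urea cycle, it was −0.0178, 0.288 and 0.262. The other 3 of the top 5 held *Gle1* and *Odf2*, *Angptl2* and *Ralgps1*, and *Camsap1* and *Edf1*, and all 5 were in A in every condition. The 5 bins with the largest falls were all in B in every condition and lay 74 to 102 Mb away near the other end of the chromosome. With the bin of *Bmp7*, a secreted growth factor, the coefficient was 0.0565, −0.127 and −0.0934, and with that of *Tshz2*, a transcription factor, 0.0561, −0.12 and −0.113.

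For *Neb*, the largest gain was with the bin of *Mga*, *Itpka* and *Chp1*, where the coefficient was −0.0594 in myoblasts, 0.0528 in myotubes and 0.0677 in the AraC-treated myotubes. The second was with *Bcl2l11*, which encodes a regulator of cell death, with −0.0439, 0.0548 and 0.066. The largest fall was with the bin of *Pcsk2* and *Dstn*, with 0.0495, −0.0436 and −0.0145. The bin of *Cdh4*, a cadherin, was among the 5 largest falls of both loci. As with *Ttn*, the gains were with A bins and the falls with B bins.

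*Ttn* and *Neb* lie 24.5 Mb apart. Their coefficient with each other was 0.00897 in myoblasts, 0.0473 in myotubes and 0.0211 in the AraC-treated myotubes. Pairs of chr 2 bins at this separation had a mean of 0.0258 ± 0.056 (SD, 302 pairs) in myoblasts, 0.0198 ± 0.0937 (304 pairs) in myotubes and 0.0111 ± 0.081 (305 pairs) in AraC-treated myotubes. In each condition, the pair of *Ttn* and *Neb* lay within 1 SD of this mean, and 36.4%, 59.5% and 49.8% of the pairs were lower. Among pairs of A bins at the same separation, the mean was 0.0749 ± 0.0709 in myotubes, and 24 of 42 such pairs exceeded *Ttn* and *Neb*. The mean over the 3 by 3 bins around the pair was 0.0102 in myotubes and −0.00102 in the AraC-treated myotubes. The move of both loci to A was thus not accompanied by a high coefficient between them.

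Their profiles over the rest of chr 2 were nevertheless more alike after differentiation. Between the *Ttn* and the *Neb* coefficients of the same condition, Pearson *r* was 0.446 over 350 bins in myoblasts, 0.637 over 351 in myotubes and 0.875 over 352 in AraC-treated myotubes. Over the bins of the other autosomes, it was 0.255 over 4377 bins, 0.705 over 4381 and 0.873 over 4383. Without bins within 2 Mb of either locus, the chr 2 values were 0.445, 0.644 and 0.89. In all of these the order of the conditions was the same, and the compartment of the bins is shared by both profiles.

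**Figure D3:**
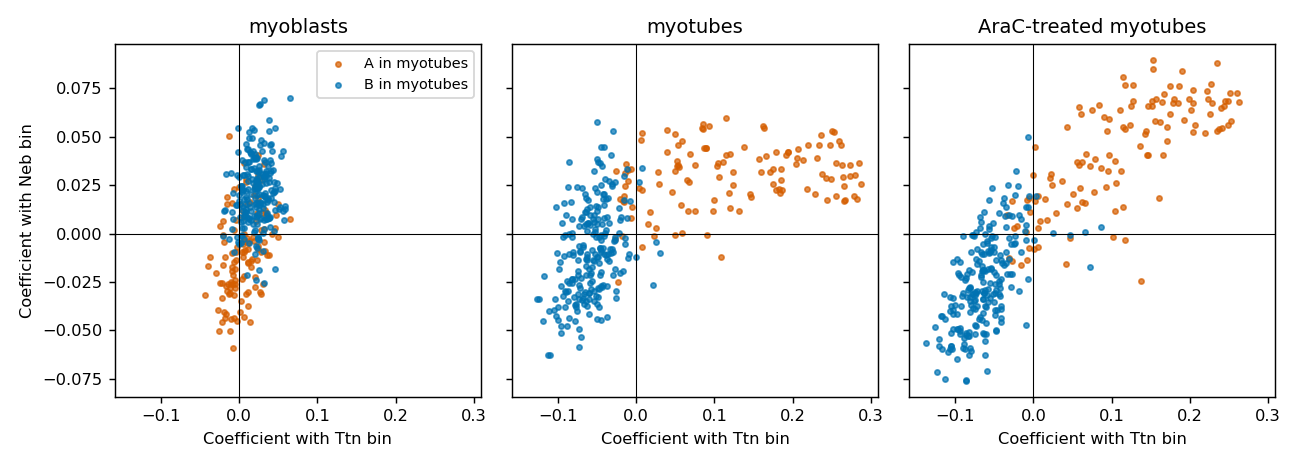
Coefficient of each chr 2 bin with the *Ttn* bin (x axis) against its coefficient with the *Neb* bin (y axis), 1 panel per condition, coloured by the compartment of the bin in myotubes. The cloud is compact in myoblasts (*r* = 0.446) and drawn out along a diagonal in AraC-treated myotubes (*r* = 0.875).

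Coefficients with bins of other chromosomes did not enter the chr 2 scores, but they are not independent of them. All coefficients of a bin rest on its same interaction profile, and such partners were also part of the selection. In myoblasts, the *Ttn* bin had a mean coefficient of 0.00181 ± 0.0165 (SD over bins) with the 1675 A bins of the other autosomes and of 0.0106 ± 0.016 with the 2702 B bins. In myotubes, the means were 0.0995 ± 0.0874 with 1600 A bins and −0.0692 ± 0.0261 with 2781 B bins, and in AraC-treated myotubes 0.0992 ± 0.0713 and −0.0628 ± 0.0267. The difference of A minus B was −0.00884, 0.169 and 0.162. The share of A bins with a coefficient above 0 was 53.4%, 85.6% and 91.3%, and that of B bins 74.5%, 1.8% and 2.86%. In its partners on other chromosomes, *Ttn* in myotubes resembled an A bin, with a difference higher than in 84.2% of autosomal bins.

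For the *Neb* bin, A minus B was −0.0208 in myoblasts, 0.0341 in myotubes and 0.0601 in the AraC-treated myotubes. The mean with A bins rose from −0.00729 ± 0.0187 to 0.0226 ± 0.0184 and 0.0369 ± 0.025. The mean with B bins fell from 0.0136 ± 0.0151 to −0.0114 ± 0.0164 and −0.0232 ± 0.0178. The difference was higher than in 71.6% of autosomal bins in myotubes and 74.3% in the AraC-treated myotubes. The change of A minus B from myoblasts to myotubes was 0.178 for *Ttn*, ranked 56 of 4729 bins, and 0.0549 for *Neb*, ranked 1053, around a median of −0.0622.

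**Figure D4:**
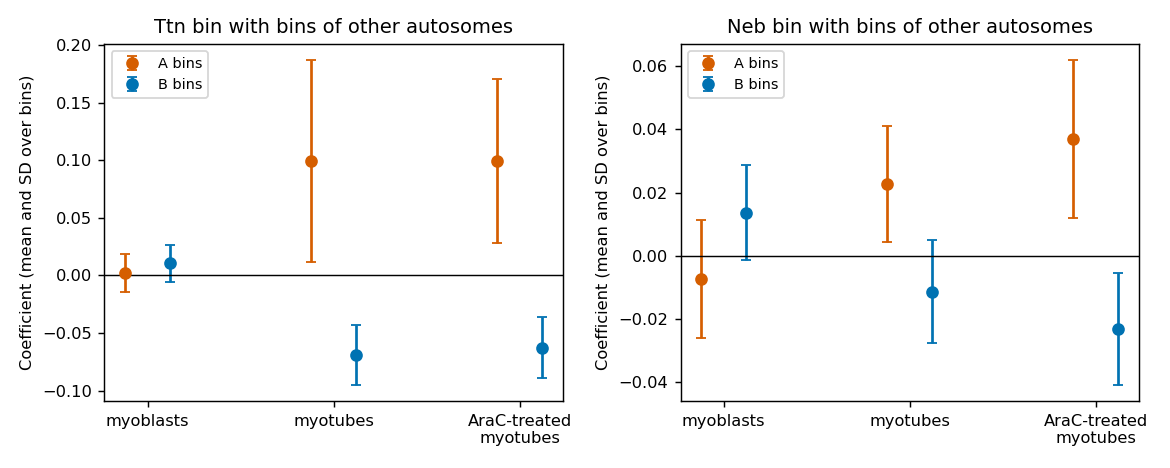
Mean correlation coefficient of the *Ttn* bin (left) and the *Neb* bin (right) with the A bins and the B bins of the other autosomes in each condition, with the SD over bins as error bars and separate y axes. The A and B means are 0.00181 and 0.0106 for *Ttn* in myoblasts and 0.0995 and −0.0692 in myotubes, and the *Neb* means change sign in the same direction with smaller values.

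The strongest partner of *Ttn* on another chromosome in both later conditions was the bin of *Runx1* at chr16:92500001-93000000. *Runx1* encodes a transcription factor known from blood formation and also active in muscle. The coefficient with it was 0.00496 in myoblasts, 0.336 in myotubes and 0.259 in the AraC-treated myotubes. The 2 bins beside it, one of which starts *Rcan1*, *Kcne1* and *Mrps6*, were also among the top 5 in myotubes, with 0.31 and 0.293. The others were the bin of *Atf4*, *Pdgfb* and *Rpl3* on chr 15, with 0.298, and that of *Cotl1* and *Atp2c2* on chr 8, with 0.29. In AraC-treated myotubes, the fifth was the bin of *Mb*, which encodes myoglobin, and *Rbfox2*, a splicing factor, at chr15:77000001-77500000. Its coefficient with *Ttn* was −0.0184, 0.259 and 0.241. In myoblasts, the highest coefficient of *Ttn* with any bin of another autosome was 0.0602, with the bin of *Hmgb2* and *Galnt7* on chr 8, which was −0.0804 in myotubes.

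All of the 50 highest partners of *Ttn* were in A both in myotubes and in the AraC-treated myotubes, against 12 of 50 in myoblasts. Of all bins of other autosomes, 38.3% were in A in myoblasts, 36.6% in myotubes and 35.5% in the AraC-treated myotubes. A bin in A has high coefficients with A bins, so these counts are a description. The 50 partners held a median of 9 protein-coding starts in both later conditions and 4 in myoblasts, while the median over bins of other autosomes was 2. Myoblasts and myotubes shared 0 of the 50 partners, as did myoblasts and AraC-treated myotubes. Between myotubes and AraC-treated myotubes, 24 of 50 (48%) were shared. Lists this short would share few bins even if unrelated, so 0 is not read as a complete turnover. The overlap for other bins was not computed.

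In both later conditions, the partners of *Neb* had lower coefficients than those of *Ttn*. The 50 highest ran from 0.0561 to 0.0728 in myotubes, against 0.252 to 0.336 for *Ttn*, while in myoblasts they ran from 0.0467 to 0.0627, against 0.0452 to 0.0602. In myotubes, the highest coefficients with bins of other autosomes were 0.0728 with the bin of *Fancc* on chr 13, and 0.0727 with that of *Sdc1*, *Rhob* and *Pum2* on chr 12. In AraC-treated myotubes the coefficient with the bin of *Lif* and *Osm* on chr 11 was 0.098. *Lif* and *Osm* encode related cytokines. None of the 50 highest partners of *Neb* in myoblasts was in A, against 49 in myotubes and 50 in the AraC-treated myotubes. Of all bins of other autosomes, 38.3%, 36.6% and 35.5% were in A in these conditions. Only 2 of the 50 partners (4%) were shared between myotubes and AraC-treated myotubes. *Ttn* and *Neb* shared 0 of 50 partners in myoblasts and in myotubes, and 4 in the AraC-treated myotubes. For these counts too, the overlap between other bins was not computed.

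Other sarcomere genes were placed in the same matrices from 4 lists, which held 56 genes beside *Ttn* and *Neb*. These lay in 52 autosomal bins. None of the 52 bins moved from B to A, in either comparison with myoblasts. Over all autosomal bins, 2.77% did so to myotubes and 3.72% to AraC-treated myotubes. Only 14 of the listed bins were in B in myoblasts, so no difference from these shares is read from the count. One moved from A to B, that of *Ankrd2*, a stretch-responsive protein that binds titin, with PC1 of 0.0805, −0.412 and −0.077. Over all autosomal bins, 4.55% moved from A to B from myoblasts to myotubes, and 6.52% did so from myoblasts to AraC-treated myotubes. The other bins kept their compartment in both comparisons, 37 (71.2%) in A and 14 (26.9%) in B. Over all autosomal bins, these shares were 33.7% and 58.9% between myoblasts and myotubes.

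Most listed sarcomere gene bins were thus already in A in myoblasts, unlike those of *Ttn* and *Neb*, which were picked on PC1. Of the 38 bins in A in myoblasts, 35 (92.1%) had a higher score in myotubes, against 80% of all autosomal A bins, and with scores divided by their SD the shares were 50% and 46%. Of the 14 listed bins in B in myoblasts, as *Ttn* and *Neb* were, 2 (14.3%) had a higher score in myotubes, against 8.33% of all autosomal B bins, and after scaling 71.4% against 48.4%. No listed bin had a rise as large as that of *Ttn*, and the largest was 2.16 for *Tnni1*, slow troponin I. The *Neb* rise from myoblasts to myotubes was exceeded by 28 of the 52 listed bins, and that from myoblasts to AraC-treated myotubes by 6. On scaled scores, *Neb* was exceeded by 1 listed bin in each comparison, that of the *Myh1*, *Myh2*, *Myh3*, *Myh4* and *Myh8* cluster on chr 11. There, PC1 was −1.72 in myoblasts, −2.09 in myotubes and −1.24 in the AraC-treated myotubes, in B throughout, and the scaled rise of 0.703 in myotubes came from the larger SD.

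Among the giant and M-band proteins, *Obsl1*, with 0.984, 2.55 and 1.87, *Nrap*, with 0.776, 1.97 and 1.51, and the M-band genes *Myom1* and *Myom3* were in A in all conditions. *Nebl*, the cardiac relative of nebulin, was in B with −0.289, −1.04 and −0.877, as was *Myom2*.

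Of the 19 bins of titin-binding and Z-disc proteins, 12 were in A and 6 in B in both myoblasts and myotubes. *Tcap*, the telethonin that caps titin at the Z-disc, had 2.46, 4.1 and 3.36. *Capn3*, a protease that binds titin and lies 43.5 Mb from it on chr 2, had 2.22, 4.27 and 3.54. *Actn2*, the α-actinin that anchors titin, had −0.642, −1.12 and −0.934, and *Ldb3* and *Myot*, also of the Z-disc, were in B throughout. Among the 13 bins of thin filament proteins that work with nebulin, 10 were in A and 3, those of *Actc1*, *Lmod2* and *Lmod3*, in B. Skeletal α-actin, *Acta1*, had 2.09, 3.78 and 3.25. The bin of *Klhl41*, which stabilizes nebulin, lies 17.5 Mb from *Neb* and was near the boundary with 0.401, 0.0552 and 0.14. Of the 13 bins of myosin filament and troponin genes, 10 were in A and 3 in B.

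**Figure D5:**
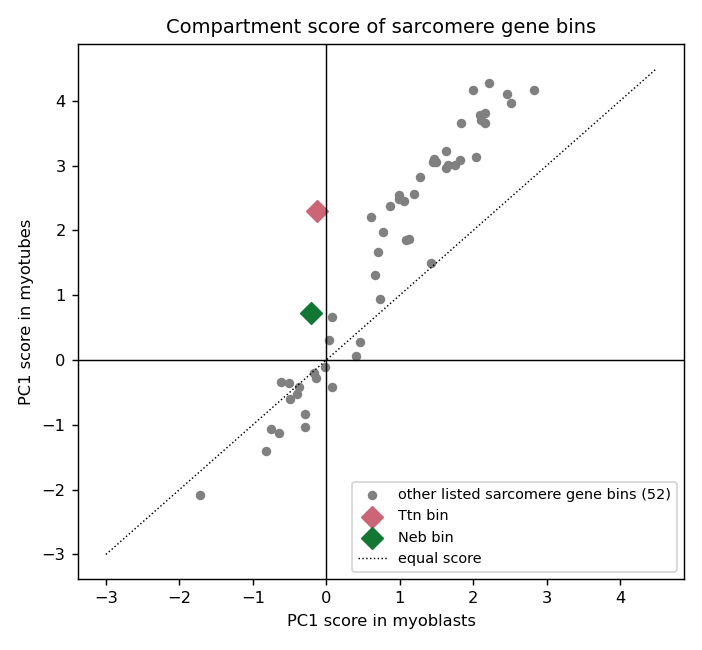
PC1 score in myotubes against that in myoblasts for the 52 bins of the other listed sarcomere genes (grey), the *Ttn* bin and the *Neb* bin, with a dotted line of equal score. The *Ttn* bin (−0.13 and 2.3) and the *Neb* bin (−0.207 and 0.718) are the 2 points in the upper left field, B in myoblasts and A in myotubes.

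The coefficient of the *Ttn* bin with the 45 listed bins on other chromosomes averaged 0.00101 ± 0.0207 (SD over bins) in myoblasts, 0.0929 ± 0.12 in myotubes and 0.0841 ± 0.0975 in the AraC-treated myotubes. In myotubes, it was 0.24 with *Kbtbd13*, 0.239 with *Acta1*, 0.235 with *Myom3* and 0.222 with *Tcap*, and −0.104 with *Actn2*. The coefficient was above 0 with 30 of the 33 listed bins in A in myotubes, against 1369 of all 1600 A bins of other autosomes (85.6%). The exceptions among the listed bins were *Mypn* (−0.0105), *Ankrd1* (−0.0198) and *Tnnt1* (−0.0265). The 33 listed bins in A in myotubes averaged 0.151 ± 0.0808, against 0.0995 ± 0.0874 for all A bins of other autosomes, and the 12 in B averaged −0.0669 ± 0.022, against −0.0692. Listed bins and all A bins were not matched for PC1, so no preference for sarcomere genes is read from this. The myotube scores of *Mypn*, *Ankrd1* and *Tnnt1* were low, at 0.661, 0.301 and 0.279. *Neb* averaged −0.00579 ± 0.025, 0.019 ± 0.0185 and 0.0322 ± 0.0309 with the listed bins, and in myotubes 0.0265 ± 0.0133 with those in A, against 0.0226 ± 0.0184 for all A bins.

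On chr 2, *Ttn* had −0.00498, 0.266 and 0.227 with *Capn3*, 0.0223, 0.184 and 0.165 with fast troponin C, *Tnnc2*, and 0.0032, 0.157 and 0.147 with *Mybpc3*, a myosin-binding protein. With *Xirp2*, only 9.5 Mb away and in B, it had 0.0221, −0.0552 and −0.0786. *Neb* had −0.0185, 0.0246 and 0.0774 with *Capn3* and 0.0387, −0.0137 and −0.02 with *Xirp2*. *Klhl41*, in A in every condition, had a myotube coefficient of −0.027 with *Ttn* and −0.00276 with *Neb*. *Nebl*, in B throughout, had 0.00229 with *Neb* in AraC-treated myotubes.

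The bins whose 3 scaled scores were nearest to those of *Ttn* lay on chr 8 and chr 10. The nearest, inside *Cdh13*, which encodes a cadherin, had PC1 of 0.143, 2.52 and 2.38, and the next, with *Mphosph6* and *Hsd17b2*, had 0.0872, 1.94 and 1.92. After these came the bin of *Nuak1*, a kinase, with −0.0343, 1.6 and 2.22. Their distances were 0.378, 0.384 and 0.448 in SD units. *Neb* was 1.32 away and ranked 313 among the bins nearest to *Ttn*, while *Ttn* ranked 1364 among those nearest to *Neb*. For *Neb*, 2 of the 3 nearest bins held *Cdh16* and carboxylesterase genes, at 0.134, and *Pafah1b1* and *Mnt*, at 0.136.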

How the data were processed

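Hi-C libraries of 3 conditions, 2 replicates each, were made by the authors with HindIII, mapped with bowtie and filtered in HiCUP. Replicates were pooled and normalized in HOMER to 1 matrix per condition. The deposited values are scores, here Pearson correlation coefficients of interaction profiles of 500 kb bins (mm10), and were used as deposited. The number of read pairs behind them is unknown from the files. Bins at 0 throughout were taken as without data. Columns not mapped to a condition numbered 0.

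PC1 was computed per chromosome with columns centred and not scaled, oriented by protein-coding starts (GENCODE vM21). Profile *r* was taken over the other bins of the chromosome. A gene was placed in the bin with its largest overlap. No test was run. Some listed or neighbouring genes are not reported here. The 2 loci, the gene lists and the measures were chosen with earlier results of these data known. Named bins were the 5 highest partners, the 5 largest gains and losses on chr 2, the 3 most alike and up to 10 neighbours. Alternatives changed the columns, scaling, bins and cut-offs. Steps were tested on simulated matrices. The analysis ran in Python 3.11.15 (numpy 2.4.6 for matrices, scipy 1.17.1 for ranks, and matplotlib 3.10.9 for the plots).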

Additional observations from a re-analysis of the deposited data

How the results depend on the processing

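No paired analysis was possible because the replicates were pooled before deposit. With a single matrix per condition, no error between replicates can be given, and depth cannot be read from a correlation coefficient. The authors reported a lower correlation between the replicates of myoblasts than between those of either later condition. Their pooled libraries also differed in the number of valid read pairs. Whether this bears on the flatter myoblast profiles was not tested. The compartments of both loci, B in myoblasts and A later, were kept under the 6 alternatives for PC1 that could change a sign, since division by an SD cannot. From myoblasts to myotubes and to AraC-treated myotubes, the *Ttn* rise was 2.2 and 2.17 with uncentred columns, 18.1 and 19.7 with scaled columns, 1.58 and 1.75 divided by the autosomal SD, 1.78 and 1.68 with odd columns, 1.65 and 1.58 with even columns, 7.62 and 6.86 with a component from other autosomes, and 2.36 and 2.23 without columns within 2 Mb. The *Neb* rise was 0.702 and 1.04, 8.23 and 11.2, 0.687 and 0.96, 0.666 and 0.835, 0.642 and 0.838, 2.73 and 3.44, and 0.902 and 1.14 in the same order.

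Profile *r* kept its sign under every alternative. Over the bins of other autosomes it was −0.281, −0.253 and 0.965 for *Ttn* and −0.441 for *Neb* between myoblasts and myotubes. Spearman's rho was 0.905 for *Ttn* between myotubes and AraC-treated myotubes and −0.522 for *Neb* between myoblasts and AraC-treated myotubes. For the coefficient of *Ttn* with *Neb*, the mean of 3 by 3 bins was 0.0155, 0.0102 and −0.00102, which reversed the last. Minus the mean at the same separation, it was −0.0168, 0.0275 and 0.0101, which reversed that of myoblasts. With only the bins whose PC1 was above the 20th percentile in size, A minus B was −0.011, 0.204 and 0.192 for *Ttn* and −0.026, 0.0405 and 0.0711 for *Neb*. With the compartments of myoblasts, it was 0.156 and 0.14 for *Ttn* and 0.0322 and 0.0553 for *Neb* in the later conditions. The shared partners of *Neb* were 1% of 100 bins between myoblasts and myotubes, and 0% of 20 and 13% of 100 between myotubes and AraC-treated myotubes. The median coefficient of *Ttn* with the sarcomere bins of myoblasts was −0.00169, against a mean above 0. No listed bin changed compartment among those above the 20th percentile in both conditions (0 for both comparisons with myoblasts). The causes were not tested. The other 42 values moved by less than the 95% interval of *r*, the SD over bins or 1.5 times. That interval takes bins as independent, which neighbouring bins are not, so it is only a yardstick for sorting these values.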
